A study of Mus musculus with 4 samples.

Results

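The Ms4a genes encode small proteins that cross the membrane repeatedly. They were followed here in sorted brain myeloid cells of mice given an antibody to Trem2, a microglial receptor for lipids and damaged cells. The members were the matrix rows with the symbols Ms4a4b, Ms4a4c, Ms4a6b, Ms4a6c, Ms4a6d and Ms4a7, 6 of 19737 genes and 6 of the 12 genes whose symbol begins with Ms4a. All 6 passed the filter on low counts in the sums over each mouse, and 5 of them, without Ms4a4b, were tested inside cell clusters. None of the other 6 Ms4a genes passed. Ms4a14 had 132 unique molecular identifiers (UMIs, counts of single captured molecules) in all cells together, Ms4a4a had 44, Ms4a1, which encodes the B cell antigen CD20, had 26, Ms4a8a had 14, Ms4a4d had 3, and Ms4a2, the mast cell and basophil IgE receptor subunit, had 0.

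Single-cell RNA sequencing was performed on 74758 cells from 20 mice, 4 mice in each of 5 groups, 24 h after 1 intravenous dose of 10 mg per kg. All mice carried a transferrin receptor (TfR) knock-in that puts the human apical domain into the mouse receptor. WT; TfRmu/hu mice received ATV:ISO, an isotype control with a TfR-binding Fc domain, or ATV:4D9, the mouse Trem2 antibody 4D9 with that Fc domain. AppSAA; TfRmu/hu mice, which also carry a humanized App gene with familial Alzheimer's disease mutations, received ATV:ISO, 4D9 without the TfR-binding domain, or ATV:4D9. The AppSAA mice were homozygous for both alleles. Ages were not given in the labels used here. One WT ATV:ISO mouse was recorded as female and all others as male. The labels disagree on the tissue, cortex alone or cortex with hippocampus, and on the sort, CD11b+ alone or CD45+ and CD11b+. Each of 4 pools held 1 mouse of each group, the cells of a mouse were told apart by oligonucleotide tags, and replicate 1 of every group came from pool 1, and so on. P-values measure the spread between these mice.

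Between 2193 and 6126 cells and between 17150296 and 102446549 UMIs were kept per mouse. Median UMIs per cell averaged 7566 in WT ATV:ISO, 9339 in AppSAA ATV:ISO and 9741 in AppSAA 4D9 mice, but 15338 in WT ATV:4D9 and 15523 in AppSAA ATV:4D9 mice. Depth per cell therefore moved with ATV:4D9, and results are given relative to all UMIs and, where it matters, per cell. A total of 543 barcodes occurred in more than 1 pool and 0 in more than 1 mouse of a pool. The myeloid label was checked against marker lists. All 8 microglial markers were detected in every group, with a summed level of 11850 to 23970 CPM (counts per 1000000 UMIs of the mouse). The border-associated macrophage list summed to 11.6 to 35.2 CPM, the monocyte list to 4.09 to 13.8 CPM, and the 1 mast cell marker in the matrix was at 0. The neuron list summed to 0.325 to 1.77 CPM, but the astrocyte list to 60.0 to 164 CPM, the oligodendrocyte list to 14.7 to 44.4 CPM and the endothelial list to 9.49 to 52.2 CPM. The B cell list reached 177 to 304 CPM, nearly all of it Ighm and Cd79b. The neutrophil list summed to 4.48 to 23.7 CPM.

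In mice as in humans the family is a cluster of neighboring genes whose proteins sit in the plasma membrane and in endosomes, often beside immune receptors. Single members are textbook markers of B cells, mast cells and macrophages, and others are carried by T cells and myeloid cells. The human MS4A locus is associated with Alzheimer's disease risk and with the amount of soluble TREM2 in cerebrospinal fluid, which is the interest of the family in a study of Trem2 antibodies.

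The 6 members lie within 284 kb on chromosome 19 of the mouse genome (build GRCm38, which the submitters' processing notes call mm10). In chromosome order Ms4a7 occupies chr19:11321039-11336146 on the minus strand, Ms4a4c chr19:11404770-11427246, Ms4a4b chr19:11443553-11467055, Ms4a6c chr19:11469366-11482192 and Ms4a6b chr19:11516512-11531256 on the plus strand, and Ms4a6d chr19:11586604-11604849 on the minus strand. The promoter windows of 2 pairs of neighbors are shown because the members of each pair resemble each other in sequence. Each window is 300 bases from RefSeq (GRCm38.p6), most of it before a transcript start, on the plus strand. A window was matched for 5 of the 6 members. In the first pair the capitals mark GAAANNGAA, the core of the element that interferon regulatory factors bind.
Ms4a6c, chr19:11469118-11469417: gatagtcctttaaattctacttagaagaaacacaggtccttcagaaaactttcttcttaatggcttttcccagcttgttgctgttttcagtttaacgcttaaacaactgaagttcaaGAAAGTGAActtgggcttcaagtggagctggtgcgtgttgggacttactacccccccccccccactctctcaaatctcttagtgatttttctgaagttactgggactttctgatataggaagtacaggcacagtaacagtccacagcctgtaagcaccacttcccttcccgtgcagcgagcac
Ms4a6b, chr19:11518309-11518608: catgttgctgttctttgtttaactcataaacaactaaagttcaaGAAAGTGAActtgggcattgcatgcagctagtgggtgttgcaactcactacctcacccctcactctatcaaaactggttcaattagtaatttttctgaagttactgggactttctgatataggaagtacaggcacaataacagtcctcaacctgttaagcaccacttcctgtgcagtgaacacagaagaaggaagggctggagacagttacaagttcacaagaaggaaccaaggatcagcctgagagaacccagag
The copies begin 133 and 206 bases before the transcript start to which the windows of Ms4a6c and Ms4a6b belong, and both read GAAAGTGAA. The windows of Ms4a6b and Ms4a4c lie inside the gene spans given above, downstream of the first annotated start, whereas those of Ms4a6c and Ms4a4b lie at the start of the gene span. Aligned, the windows were identical at 64% of their bases, with a longest shared run of 48 bases. In the second pair the capitals mark GAGGAA, the core recognized by PU.1, a transcription factor of myeloid cells.
Ms4a4c, chr19:11407411-11407710: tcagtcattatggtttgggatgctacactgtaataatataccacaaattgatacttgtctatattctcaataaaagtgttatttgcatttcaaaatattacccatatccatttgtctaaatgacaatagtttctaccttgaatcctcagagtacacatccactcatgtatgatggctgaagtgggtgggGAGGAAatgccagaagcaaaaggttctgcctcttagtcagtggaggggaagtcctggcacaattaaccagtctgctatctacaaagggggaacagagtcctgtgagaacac
Ms4a4b, chr19:11443308-11443607: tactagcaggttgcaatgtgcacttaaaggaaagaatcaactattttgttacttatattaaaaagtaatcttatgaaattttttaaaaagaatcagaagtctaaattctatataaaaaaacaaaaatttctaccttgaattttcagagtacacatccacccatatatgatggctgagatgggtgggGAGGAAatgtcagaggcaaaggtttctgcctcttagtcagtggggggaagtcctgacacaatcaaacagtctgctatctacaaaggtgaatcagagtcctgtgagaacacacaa
These copies begin 61 and 64 bases before the transcript start of the window, and the windows were identical at 73% of their bases, with a longest shared run of 20 bases. Other pairs of member windows were identical at 41.3% to 49.7%. Each motif was searched on both strands. GAAANNGAA occurred in 8.56% and GAGGAA in 28.3% of 32851 mouse promoter windows of this length. GAAANNGAA had no match in the windows of Ms4a4b and Ms4a4c, GAGGAA had none in those of Ms4a6b and Ms4a6c, and each of the windows of Ms4a7 held 1 match of GAAANNGAA. TTCNNNGAA, the core bound by STAT factors, had no match in the member windows and occurred in 8.30% of all windows. A match is a description of letters. The neighbors also share transcript sequence: 8.19% of the 50-base stretches of Ms4a4c transcripts occurred in another Ms4a gene, most of them in Ms4a4b, against 5.85% for Ms4a6c and 3.44% for Ms4a6b, which share them mainly with each other, 2.31% for Ms4a6d, 2.25% for Ms4a4b and 0 for Ms4a7. Reads from such stretches could be split or lost in counting.

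Levels are given as normalized CPM, summed over all cells of a mouse after TMM scaling (edgeR's correction for composition). Differences are log2 fold changes ± SE from edgeR's quasi-likelihood test over all genes, and a gene is called where its Benjamini-Hochberg adjusted p is under 0.05. In sums over all cells of a mouse, fewer cells of a type and less RNA per cell cannot be told apart.

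**Figure D1:**
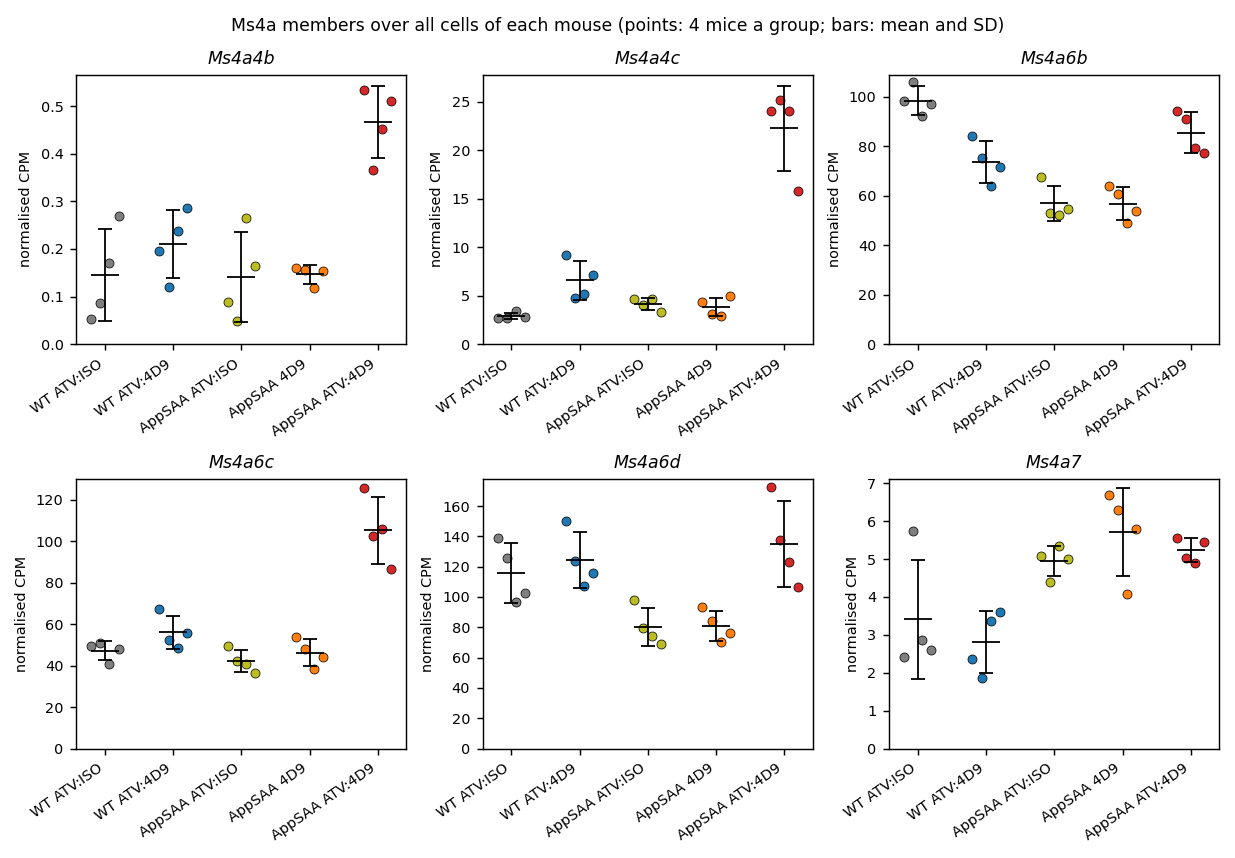
Normalized CPM of each member (vertical axes, each from 0) in 20 mice, 1 point per mouse, with the group mean and SD as bars, in the 5 groups along the horizontal axis. Ms4a4c and Ms4a6c sit highest in the 4 AppSAA ATV:4D9 mice, at 15.8 to 25.2 and 86.5 to 126 CPM, whereas Ms4a6b is at 92.0 to 106 CPM in WT ATV:ISO mice and at 77.4 to 94.2 CPM in AppSAA ATV:4D9 mice.

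ATV:4D9 in AppSAA mice was followed by higher levels of 5 of the 6 members, Ms4a4b, Ms4a4c, Ms4a6b, Ms4a6c and Ms4a6d, than ATV:ISO. All genes called were 55.1% of 14058 tested, and those called higher 27.9%. The CPM of 46.8% of all genes did not overlap between these groups, and that of 46.3% between ATV:4D9 and 4D9 in AppSAA mice. The 5 rises ranged from 1.49-fold for Ms4a6b to 5.29-fold for Ms4a4c. Ms4a7 was not called (log2 fold change 0.06 ± 0.22, adjusted p = 0.833).

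Ms4a4c, which belongs to the interferon-inducible genes of mouse macrophages, had the largest fold change. Its levels in the 4 mice, replicates 1 to 4, were 24.0, 25.2, 24.1 and 15.8 CPM with ATV:4D9, 4.69, 4.00, 4.64 and 3.33 CPM with ATV:ISO, and 4.31, 3.16, 2.92 and 4.93 CPM with 4D9. The lowest ATV:4D9 mouse was above every other AppSAA mouse. The means were 22.3 ± 4.35 and 4.16 ± 0.639 CPM (SD, n = 4), and the difference was called (log2 fold change 2.40 ± 0.20, adjusted p = 4.77e-09). In WT mice Ms4a4c was at 9.17, 4.81, 5.21 and 7.19 CPM with ATV:4D9 and at 2.70, 2.68, 3.38 and 2.81 CPM with ATV:ISO, again without overlap (log2 fold change 1.12 ± 0.22, adjusted p = 0.000167). In that WT comparison 63.3% of the genes were called, and the CPM of 54.8% did not overlap between the groups. The rise was greater in AppSAA than in WT mice by 1.29 ± 0.30 on the log2 scale, by the test of the difference itself (adjusted p = 0.008), a test that called 9.14% of genes, and 3.79% of genes as higher. With the pool as a block that test called 30.5% of genes, 16.9% as higher. The call of that difference was lost when cells with 2 or more UMIs of markers of other cell types were left out (1.18, adjusted p = 0.127), a step that removed 73.0% of cells because Ighm and Cd79b were detected widely.

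Ms4a4b, a protein of the T cell surface that modulates T cell activation, is the close neighbor of Ms4a4c and was rare, with 256 UMIs in 0.313% of cells. It was at 0.534, 0.365, 0.453 and 0.511 CPM in the AppSAA ATV:4D9 mice, all above the highest of the other 16 mice, at 0.287 CPM. It was called against ATV:ISO (log2 fold change 1.55 ± 0.36, adjusted p = 0.00121) and not in WT mice (log2 fold change 0.34 ± 0.46, adjusted p = 0.541), but the effects were not shown to differ (difference 1.21 ± 0.60, adjusted p = 0.255). The T and NK cell list was higher in the same mice, summing to 54.3 to 80.5 CPM in AppSAA ATV:4D9 against 7.23 to 50.9 CPM in the other groups. Ccl5, a chemokine, made up nearly all of that sum, at 54.0 to 80.4 CPM in AppSAA ATV:4D9 mice. The T cell receptor chains Cd3e, Cd3d and Cd3g and the constant region Trbc2 were at or near 0, none above 0.227 CPM in any mouse. Without the 6.30% of cells that had 2 or more UMIs of other-cell-type markers, Ighm and Cd79b not counted (a step chosen after the data were seen), the Ms4a4b rise was 1.57 on the log2 scale and was called.

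Ms4a6c, a monocyte and macrophage member of the Ms4a6 branch, followed the same groups. With ATV:4D9 the AppSAA mice had 126, 102, 106 and 86.5 CPM, with ATV:ISO 49.2, 42.0, 40.7 and 36.6 CPM and with 4D9 53.9, 47.9, 38.4 and 44.3 CPM. Every ATV:4D9 mouse exceeded every other mouse of the study. The WT values were 67.3, 52.5, 48.5 and 55.8 CPM with ATV:4D9 and 49.6, 50.8, 40.6 and 48.0 CPM with ATV:ISO, and these overlapped. Ms4a6c was called in AppSAA mice (log2 fold change 1.30 ± 0.13, adjusted p = 4.87e-08) and not in WT mice (log2 fold change 0.17 ± 0.13, adjusted p = 0.244), and the effects differed by 1.13 ± 0.18 on the log2 scale (adjusted p = 0.000409). The monocyte list ran high in the same mice, with a small overlap, summing to 10.0 to 13.8 CPM in AppSAA ATV:4D9 against 4.09 to 10.3 CPM in AppSAA ATV:ISO, 5.61 to 8.86 CPM in AppSAA 4D9 and 4.93 to 8.27 CPM in WT mice. Within it Plac8 was at 7.89 to 10.3 CPM in AppSAA ATV:4D9 and at 0.557 to 2.04 CPM in the other AppSAA mice. In these same groups Ccr2 was at 1.30 to 2.66 CPM against 2.30 to 6.06 CPM and Ly6c2 at 0.0682 to 0.266 CPM against 0.0696 to 2.67 CPM. The list also held Chil3 and Vcan, whose values are not given here. Ms4a6c stayed called in AppSAA mice without cells that had 2 or more UMIs of other-cell-type markers, the monocyte list among them. The part of cells with monocyte markers alone was not tested.

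Ms4a6b, expressed by T cells and myeloid cells, took opposite directions in the genotypes. In WT mice it was at 98.4, 106, 92.0 and 97.0 CPM with ATV:ISO and at 84.3, 75.0, 63.9 and 71.4 CPM with ATV:4D9, a fall without overlap (log2 fold change -0.49 ± 0.10, adjusted p = 0.000358). In AppSAA mice it was at 67.5, 53.1, 52.3 and 54.7 CPM with ATV:ISO, 63.9, 60.8, 48.8 and 53.8 CPM with 4D9 and 94.2, 91.0, 79.5 and 77.4 CPM with ATV:4D9. The AppSAA ATV:4D9 mice were all above the AppSAA ATV:ISO mice (log2 fold change 0.57 ± 0.10, adjusted p = 0.000108). The difference between the effects was 1.06 ± 0.15 (adjusted p = 0.000108). Per cell the WT direction was the other way: Ms4a6b had 124 ± 8.56 against 97.2 ± 10.6 UMIs per 100 cells (mean ± SD, n = 4) in WT ATV:4D9 and WT ATV:ISO mice, without overlap (exact permutation test, 2-sided, p = 0.0286, below which 4 against 4 mice cannot go). The fall of Ms4a6b in WT mice was a fall in its share of the UMIs, in cells that held more UMIs in all. The astrocyte list was also highest in WT ATV:ISO mice, at 135 to 164 CPM against 60.0 to 112 CPM in the other groups. Slc1a3 made up nearly all of that sum, and Gfap and Aqp4 were below 1 CPM in every mouse.

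Ms4a6d, a further myeloid member, was at 173, 138, 123 and 107 CPM in AppSAA mice with ATV:4D9, 98.2, 79.8, 74.5 and 69.1 CPM with ATV:ISO and 93.1, 84.1, 70.3 and 76.5 CPM with 4D9. The first set lay above the other sets (log2 fold change 0.73 ± 0.15, adjusted p = 0.000368 against ATV:ISO). In WT mice it was at 150.0, 124, 107 and 116 CPM with ATV:4D9 and 139, 126, 96.5 and 103 CPM with ATV:ISO, largely the same range (log2 fold change 0.03 ± 0.15, adjusted p = 0.876). The effects differed by 0.70 ± 0.21 (adjusted p = 0.0413), a call that held in 5 of 10 other settings. It held in 5 of 16 fits that left out 1 mouse (WT ATV:ISO replicate 3 or 4, WT ATV:4D9 replicate 1, AppSAA ATV:ISO replicate 1 or AppSAA ATV:4D9 replicate 4), and leaving out any other mouse gave an adjusted p of up to 0.0886.

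Ms4a7, a macrophage member that is high in border-associated macrophages and low in resting microglia, was not called with ATV:4D9 in either genotype. It was at 5.55, 5.04, 4.90 and 5.44 CPM in AppSAA ATV:4D9 mice, 5.07, 4.40, 5.35 and 5.0 CPM in AppSAA ATV:ISO mice and 6.70, 6.29, 4.07 and 5.78 CPM in AppSAA 4D9 mice. The WT values were 2.43, 5.75, 2.87 and 2.60 CPM with ATV:ISO and 2.37, 1.87, 3.38 and 3.59 CPM with ATV:4D9 (log2 fold change -0.35 ± 0.24, adjusted p = 0.207). WT ATV:ISO replicate 2 stood apart from its group at 5.75 CPM.

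Counted per 100 cells, all 6 members were higher in AppSAA ATV:4D9 than in AppSAA ATV:ISO mice, and each comparison was without overlap (exact permutation test, p = 0.0286; 0.049 after adjustment over 36 comparisons). The ratios were 7.43 for Ms4a4c, 4.41 for Ms4a4b, 3.49 for Ms4a6c, 2.35 for Ms4a6d, 2.10 for Ms4a6b and 1.47 for Ms4a7. Median UMIs per cell moved the same way, from 9339 to 15523. Of all genes tested, 50.5% were likewise higher per cell without overlap between these groups. In WT mice Ms4a4c, Ms4a6c, Ms4a6d and Ms4a6b were higher per cell without overlap, with ratios of 3.84, 2.02, 1.84 and 1.27, as were 62.1% of all genes, and Ms4a4b and Ms4a7 overlapped.

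4D9, which differs from ATV:4D9 in lacking the TfR-binding Fc domain, was compared at the same dose and time. ATV:ISO has that domain, so 4D9 and ATV:ISO differ in both Trem2 binding and TfR binding. No group received an isotype without the domain. No member was called between 4D9 and ATV:ISO in AppSAA mice, nor was any gene (0% called by edgeR, with 79 genes at an unadjusted p under 0.05, 1 called by DESeq2 and 0 by limma-voom). The differences of the members were -0.11 ± 0.43 for Ms4a4b, -0.12 ± 0.21 for Ms4a4c, 0.00 ± 0.10 for Ms4a6b, 0.13 ± 0.13 for Ms4a6c, 0.01 ± 0.15 for Ms4a6d and 0.20 ± 0.22 for Ms4a7. ATV:4D9 against 4D9 gave 5 calls, all higher, in a comparison where 54.3% of genes were called and 27.6% called higher. Ms4a4c led them (log2 fold change 2.53 ± 0.21, adjusted p = 3.21e-09), followed by Ms4a4b (log2 fold change 1.66 ± 0.39, adjusted p = 0.00131), Ms4a6c (log2 fold change 1.17 ± 0.13, adjusted p = 2.2e-07), Ms4a6d (log2 fold change 0.72 ± 0.15, adjusted p = 0.000445) and Ms4a6b (log2 fold change 0.57 ± 0.10, adjusted p = 0.000113). This comparison and the one against ATV:ISO share the ATV:4D9 mice.

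The AppSAA genotype alone, compared under ATV:ISO, went with lower Ms4a6b and Ms4a6d. This comparison called 28.2% of genes, 13.7% as lower, and with the pool as a block 51% and 29.4%. The CPM of 26.4% of genes did not overlap between these groups. Ms4a6b fell from 98.4 ± 5.83 to 56.9 ± 7.12 CPM without overlap (log2 fold change -0.84 ± 0.10, adjusted p = 3.8e-06). Ms4a6d fell from 116 ± 19.6 to 80.4 ± 12.6 CPM (log2 fold change -0.58 ± 0.15, adjusted p = 0.00652), although the highest AppSAA mouse, at 98.2 CPM, overlapped the lowest WT mouse, at 96.5 CPM. Ms4a6c (log2 fold change -0.21 ± 0.13, adjusted p = 0.225), Ms4a4c (log2 fold change 0.47 ± 0.22, adjusted p = 0.127), Ms4a7 (log2 fold change 0.49 ± 0.24, adjusted p = 0.127) and Ms4a4b (log2 fold change -0.07 ± 0.49, adjusted p = 0.942) were not called. With the pool as a block Ms4a6c was called lower (-0.22, adjusted p = 0.0278). Without WT ATV:ISO replicate 2, Ms4a7 was called higher in AppSAA mice (0.87, adjusted p = 0.00376). It was also called without the 53 cells of highest Ms4a7 described below (0.69, adjusted p = 0.0126). Those cells were picked by Ms4a7 itself, after the values were seen. They held 56.4% of its UMIs in that WT mouse and 14.3% to 31.0% in the AppSAA ATV:ISO mice. The second fit is therefore not a separate test of Ms4a7.

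Under ATV:4D9 the genotypes differed in 4 members, all higher in AppSAA mice, where 11.8% of genes were called and 7.84% called higher (31.4% and 17% with the pool as a block). These were Ms4a4c (log2 fold change 1.76 ± 0.19, adjusted p = 2.17e-06), Ms4a4b (log2 fold change 1.15 ± 0.34, adjusted p = 0.0304), Ms4a6c (log2 fold change 0.91 ± 0.13, adjusted p = 3.68e-05) and Ms4a7 (log2 fold change 0.91 ± 0.22, adjusted p = 0.00874). The Ms4a7 values did not overlap, nor did those of 14.4% of all genes. The Ms4a4b call was lost in 6 of 8 fits that left out 1 mouse, all but those without WT ATV:4D9 replicate 4 or AppSAA ATV:4D9 replicate 2, with adjusted p up to 0.11. Ms4a6b (log2 fold change 0.22 ± 0.10, adjusted p = 0.20) was called only with the pool as a block (0.22, adjusted p = 0.0055), and Ms4a6d was not called (log2 fold change 0.12 ± 0.15, adjusted p = 0.721).

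**Figure D2:**
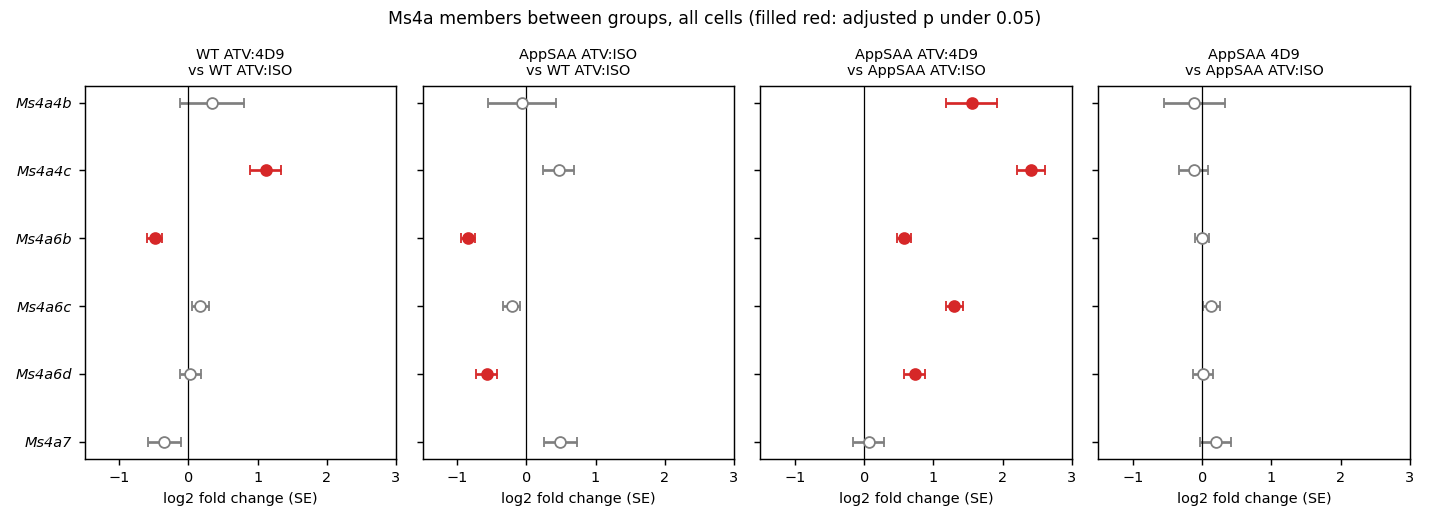
Log2 fold change with SE (horizontal axes) of each member in 4 comparisons of groups over all cells, filled red where the adjusted p is under 0.05. Under ATV:4D9 in AppSAA mice 5 members lie to the right of 0, from 0.57 for Ms4a6b to 2.40 for Ms4a4c, while Ms4a6b lies to the left, at -0.49 and -0.84, in the other 2 comparisons with called members.

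Lists of related genes were counted in the same comparisons. Of all genes tested, 27.9% were called higher and 27.1% lower with ATV:4D9 in AppSAA mice, 30.8% and 32.5% with ATV:4D9 in WT mice, and 14.4% and 13.7% between the genotypes under ATV:ISO. The 20 interferon-stimulated genes were all called higher with ATV:4D9 in AppSAA mice (median log2 fold change 2.63, against -0.03 over all genes), with Cxcl10, a chemokine, at 4.31, the antiviral enzyme Rsad2 at 3.88 and the ubiquitin-like modifier Isg15 at 3.57. In WT mice all 20 were called higher as well (median 2.04, against -0.05). Between the genotypes under ATV:ISO 16 of 20 were called higher (median 0.72, against -0.06). Of 7 genes of the Trem2 receptor and its proximal signaling, 2 were called higher and 4 lower with ATV:4D9 in AppSAA mice. The 2 called higher were the proteases Adam10 and Adam17. Those called lower included Trem2 itself at -0.70, its adaptor Tyrobp at -0.50 and the kinase Syk at -0.48. Of 7 genes often discussed with the human MS4A locus in Alzheimer's disease genetics, 4 were called lower, including the lipid carrier Apoe at -0.86 and the sialic acid receptor Cd33 at -0.58. This list shares Trem2, Plcg2 and Inpp5d with the one before, so their counts are not separate. Of 14 homeostatic microglial genes 10 were called lower, and of 15 plaque-response genes 11 were called lower. Between the genotypes under ATV:ISO 9 of the 14 homeostatic genes were called lower, as Ms4a6b and Ms4a6d were, and all 15 plaque-response genes higher. Tmem176a and Tmem176b, relatives of the family carried by antigen-presenting cells, were called lower with ATV:4D9 in WT mice (-0.60, adjusted p = 0.00259, and -0.53, adjusted p = 0.0099) and were not called in AppSAA mice (-0.27, adjusted p = 0.16, and -0.30, adjusted p = 0.141).

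The deposited clustering divided the cells into clusters 0 to 5 at its coarser resolution. Cluster 5 had higher levels of all 20 interferon-stimulated genes than the other cells (median log2 ratio 3.49), cluster 1 of all 15 plaque-response genes (2.28) and all 5 MHC class II genes (2.49), cluster 4 of all 10 cell cycle genes (4.34), cluster 3 of all 8 immediate early genes (1.65), and cluster 0 of all 14 homeostatic genes (0.84). Cluster 3 also had higher levels of 13 of the 14 homeostatic genes (0.59). Cluster 2 was high in none of these lists. Clusters were made from the expression of the same cells, so levels by cluster, given as CPM of the cluster's UMIs without TMM scaling, are a description. WT ATV:ISO mice had 60.4% of their cells in cluster 0 and 35.8% in cluster 3, and WT ATV:4D9 mice 47.8% in cluster 2 and 40.0% in cluster 4. AppSAA ATV:ISO mice had 38.3% in cluster 1, 30.8% in cluster 0 and 25.1% in cluster 3, and AppSAA 4D9 mice 39.4%, 30.4% and 24.9%. AppSAA ATV:4D9 mice had 35.4% in cluster 2, 22.4% in cluster 4, 22.4% in cluster 5 and 13.5% in cluster 1.

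**Figure D3:**
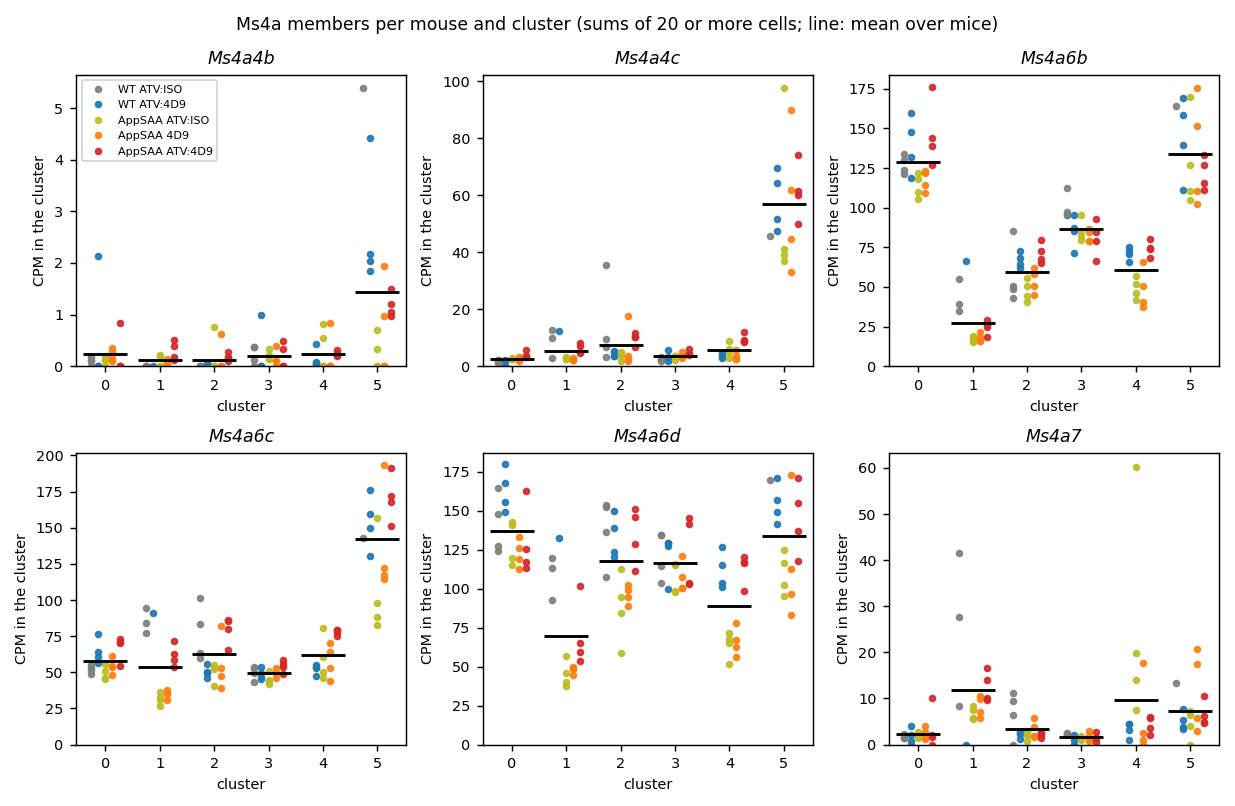
CPM of each member (vertical axes, each from 0) in clusters 0 to 5 (horizontal axis), 1 point for each mouse with at least 20 cells in the cluster, with the mean over mice as a line. Ms4a4c and Ms4a6c are highest in cluster 5, with means of 57.0 and 142 CPM, and Ms4a6b is lowest in cluster 1, with a mean of 27.2 CPM.

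Ms4a4c was concentrated in the interferon-high cluster. It averaged 57.0 ± 18.1 CPM in cluster 5 (n = 17 mice with at least 20 cells), 7.60 ± 7.70 CPM in cluster 2, 5.63 ± 2.95 CPM in cluster 4, 5.20 ± 3.70 CPM in cluster 1, 3.53 ± 1.17 CPM in cluster 3 and 2.43 ± 1.28 CPM in cluster 0. Within mice cluster 5 exceeded cluster 2 in 17 of 17. Among the others, cluster 0 was below cluster 4 in 15 of 16 mice and below clusters 2 and 3 in 17 of 20 each, and cluster 4 exceeded cluster 1 in 11 of 13, while clusters 2 and 4 kept no order (8 of 16). Ms4a4b had its highest mean in the same cluster, 1.44 ± 1.51 CPM against 0.115 to 0.238 CPM in the others. A single WT ATV:ISO mouse reached 5.38 CPM there. Cluster 5 exceeded cluster 4 in only 10 of 16 mice, and AppSAA ATV:ISO mice averaged 0.341 CPM in cluster 4 and 0.260 CPM in cluster 5. Ms4a6c was also highest in cluster 5, at 142 ± 34.3 CPM in 17 of 17 mice above cluster 2 at 62.4 ± 17.7 CPM, and between 49.5 and 61.8 CPM in the remaining clusters. In AppSAA mice given ATV:ISO or 4D9, Ms4a6c was lowest in cluster 1, at 31.7 ± 4.01 and 34.9 ± 3.04 CPM (SD, n = 4) against 45.3 to 106 and 49.4 to 137 CPM in the other clusters, while 3 WT ATV:ISO mice had 85.4 ± 8.78 CPM in cluster 1.

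Ms4a6b and Ms4a6d had their lowest means in the plaque-response cluster. Ms4a6b averaged 134 ± 25.6 CPM in cluster 5 and 129 ± 17.5 CPM in cluster 0, which did not keep a fixed order (cluster 5 higher in 11 of 17 mice). It then fell to 86.6 ± 10.4 CPM in cluster 3, 60.8 ± 14.3 CPM in cluster 4, 59.4 ± 12.8 CPM in cluster 2 and 27.2 ± 14.9 CPM in cluster 1. Cluster 0 exceeded cluster 3 in 20 of 20 mice, and cluster 2 exceeded cluster 1 in 15 of 16. Ms4a6d was at 137 ± 20.5 CPM in cluster 0 and 134 ± 29.9 CPM in cluster 5, again in no fixed order (cluster 0 higher in 8 of 17 mice), and at 69.3 ± 31.5 CPM in cluster 1, with cluster 4 above cluster 1 in 12 of 13 mice. Cluster 1 held 38.3 ± 4.64% of the cells of AppSAA ATV:ISO mice but 16.1 ± 2.13% of their Ms4a6b UMIs, against 51.3 ± 4.64% of the UMIs of all genes.

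Ms4a7 had its highest means in the plaque-response cluster 1 and the cell cycle cluster 4. It averaged 11.7 ± 9.97 CPM in cluster 1 and 9.57 ± 14.8 CPM in cluster 4, with wide spread and no fixed order (cluster 1 higher in 7 of 13 mice), 7.33 ± 5.36 CPM in cluster 5, 3.28 ± 2.83 CPM in cluster 2, 2.29 ± 2.13 CPM in cluster 0 and 1.55 ± 0.825 CPM in cluster 3. Over sums of at least 50 cells both clusters averaged 11.7 CPM. The order also differed between groups: in AppSAA ATV:ISO mice cluster 4 averaged 25.4 ± 23.8 and cluster 1 6.75 ± 1.37 CPM (n = 4), in AppSAA ATV:4D9 mice 4.35 ± 1.87 and 12.5 ± 3.30 CPM, and 3 WT ATV:ISO mice had 25.8 ± 16.7 CPM in cluster 1. Cluster 5 exceeded cluster 2 in 16 of 17 mice. Cluster 1 held 71.4 ± 12.1% of the Ms4a7 UMIs of AppSAA ATV:ISO mice and 77.5 ± 10.7% of those of AppSAA 4D9 mice, against 51.3 ± 4.64% and 52.1 ± 2.12% of the UMIs of all genes.

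The share of UMIs that each cluster supplied differed by member in AppSAA ATV:4D9 mice. Cluster 5 held 22.4 ± 4.26% of their cells, 65.2 ± 4.17% of their Ms4a4c UMIs, 59.4 ± 4.50% of Ms4a4b, 38.4 ± 4.67% of Ms4a6c, 33.5 ± 4.47% of Ms4a6b, 29.8 ± 12.3% of Ms4a7 and 25.6 ± 4.30% of Ms4a6d (mean ± SD, n = 4). In WT ATV:4D9 mice the same cluster held 4.21 ± 1.02% of cells and 41.1 ± 6.23% of the Ms4a4c UMIs.

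Fits inside each cluster, on the UMIs summed per mouse, compared the groups among the cells of 1 cluster, and are given as log2 fold changes. AppSAA ATV:4D9 was set against AppSAA ATV:ISO first. In cluster 1, where 1.51% of genes were called, Ms4a4c (1.23, adjusted p = 0.00261), Ms4a6c (1.01, adjusted p = 7.83e-05) and Ms4a6b (0.56, adjusted p = 0.0338) rose. With the pool as a block Ms4a6d (0.65, adjusted p = 0.000264) and Ms4a7 (0.94, adjusted p = 0.00699) were called there too, as were 7.77% of genes. Without AppSAA ATV:ISO replicate 1 both were called as well (adjusted p = 0.0194 and 0.0466), and so were Ms4a6d without AppSAA ATV:4D9 replicate 4 (adjusted p = 0.0253) and Ms4a7 without AppSAA 4D9 replicate 3 (adjusted p = 0.0496) or WT ATV:ISO replicate 1 (adjusted p = 0.0492). The Ms4a6b call was lost in 5 of 8 fits that left out 1 mouse, namely AppSAA ATV:4D9 replicate 1, 2 or 4 or AppSAA ATV:ISO replicate 2 or 3, with adjusted p up to 0.128. In cluster 2, where 13.2% of genes were called, Ms4a6c (0.72, adjusted p = 0.00423), Ms4a6d (0.70, adjusted p = 0.00324) and Ms4a6b (0.65, adjusted p = 0.00165) rose, and Ms4a4c was not called (1.30, adjusted p = 0.0582). It was called there under the block (1.24, adjusted p = 0.0425), with sums of at least 50 cells (adjusted p = 0.0438), and without WT ATV:ISO replicate 2, AppSAA 4D9 replicate 1 or AppSAA ATV:4D9 replicate 4 (adjusted p 0.0246 to 0.0350). Under the block 24.8% of genes were called in cluster 2. In cluster 5, where 29.7% were called, Ms4a6c (0.88, adjusted p = 0.000549) and Ms4a6d (0.54, adjusted p = 0.0149) rose, the second not without AppSAA ATV:4D9 replicate 1 (adjusted p = 0.0593) or AppSAA ATV:ISO replicate 3 (adjusted p = 0.0871). Ms4a4c, the member concentrated in cluster 5, was not called inside it (0.50, adjusted p = 0.110), but was with sums of at least 50 cells (0.76, adjusted p = 0.0131) and without AppSAA ATV:ISO replicate 1 (0.76, adjusted p = 0.0107).

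In cluster 4, where 24.5% of genes were called, Ms4a6d (0.80, adjusted p = 0.000152) and Ms4a6b (0.58, adjusted p = 0.00192) rose and Ms4a7 fell (-2.69, adjusted p = 0.000655). The Ms4a7 values there were 14.0, 7.40, 19.8 and 60.3 CPM in AppSAA ATV:ISO mice, from 27 to 74 cells each, and 3.69, 2.02, 5.68 and 6.03 CPM in AppSAA ATV:4D9 mice, from 445 to 1438 cells each. Without AppSAA ATV:ISO replicate 4, the highest of them, Ms4a7 was not called (-1.82, adjusted p = 0.0522). In AppSAA 4D9 mice the values were 2.43, 0, 0.933 and 17.7 CPM, from 26 to 54 cells each, and Ms4a7 was not called there between ATV:4D9 and 4D9 (-0.47, adjusted p = 0.746). Of the 53 cells of highest Ms4a7 described below, 2 lay in cluster 4 of AppSAA ATV:ISO mice, 1 each in replicates 3 and 4, and 5 in cluster 4 of AppSAA ATV:4D9 mice, and their part in this difference was not tested. Ms4a6c was called in cluster 4 when AppSAA ATV:ISO replicate 3 was left out (0.53, adjusted p = 0.0161). In cluster 3, where 4.33% were called, Ms4a6c rose (0.39, adjusted p = 0.0396), a call lost in 6 of 8 fits that left out 1 mouse (all but those without AppSAA ATV:4D9 replicate 3 or AppSAA ATV:ISO replicate 1, with adjusted p up to 0.146). In cluster 0, where 0.667% were called, no member was called. Ms4a6c (0.53, adjusted p = 0.0685) and Ms4a6b (0.38, adjusted p = 0.163) were called there under the block (0.55, adjusted p = 0.00077, and 0.35, adjusted p = 0.0066), as was Ms4a6d in cluster 3 (0.30, adjusted p = 0.00756). The block called 5.27% of genes in cluster 0 and 12.6% in cluster 3. Ms4a6c was also called in cluster 0 with RLE size factors (adjusted p = 0.0488) and without AppSAA 4D9 replicate 1, AppSAA ATV:4D9 replicate 3 or AppSAA ATV:ISO replicate 1 (adjusted p 0.0278 to 0.0460). The pools are the design's own batches, and replicate 1 to 4 of each group share them.

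Against 4D9 in place of ATV:ISO, which shares the ATV:4D9 mice, members were called higher in clusters 1, 2 and 4. In cluster 1, where 1.76% of genes were called, these were Ms4a4c (1.46, adjusted p = 0.000534) and Ms4a6c (0.86, adjusted p = 0.000383). In cluster 2, where 13.4% were called, these were Ms4a6c (0.60, adjusted p = 0.0180), Ms4a6d (0.52, adjusted p = 0.0253) and Ms4a6b (0.42, adjusted p = 0.0363), but each lost its call in 3 to 6 of 8 fits that left out 1 mouse, and none of the 3 was called without AppSAA 4D9 replicate 3 or 4 or AppSAA ATV:4D9 replicate 1. In cluster 4, where 22.1% were called, these were Ms4a6d (0.76, adjusted p = 0.000293), Ms4a6b (0.69, adjusted p = 0.000590), Ms4a4c (1.37, adjusted p = 0.00919) and Ms4a6c (0.48, adjusted p = 0.0214). Of these Ms4a4c was not called without AppSAA 4D9 replicate 4 (adjusted p = 0.0616), nor Ms4a6c without AppSAA 4D9 replicate 3 or 4 (adjusted p = 0.118 and 0.0819). No member was called in clusters 0, 3 and 5, where 0.65%, 3.52% and 16.3% of genes were called. In cluster 5 Ms4a6c (0.44, adjusted p = 0.0987) and Ms4a6d (0.45, adjusted p = 0.0807) were called without AppSAA 4D9 replicate 1 (adjusted p = 0.0214 and 0.00939) and under the block (adjusted p = 0.00432 and 0.00739). Leaving out 1 mouse also called Ms4a6d in cluster 5 (without AppSAA ATV:4D9 replicate 4, adjusted p = 0.0299), Ms4a6b in cluster 1 (without AppSAA ATV:4D9 replicate 3, adjusted p = 0.0275) and Ms4a4c in cluster 2 (without AppSAA 4D9 replicate 1, adjusted p = 0.0159). The block also called Ms4a6c and Ms4a6b in cluster 0, Ms4a6b and Ms4a6d in cluster 1 and Ms4a6d in cluster 3 (adjusted p 0.00136 to 0.0265). Of all genes it called 4.62%, 6.73% and 11.2% in clusters 0, 1 and 3, 23.1% in cluster 2 and 23.1% in cluster 5.

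The genotypes under ATV:4D9 differed inside cluster 2 in Ms4a4c (1.22, adjusted p = 0.00708) and Ms4a6c (0.73, adjusted p = 0.00179), where 2.07% of genes were called, and inside cluster 4 in the same genes (1.46, adjusted p = 4.86e-06, and 0.67, adjusted p = 0.000560), where 2.76% were called. All 4 were higher in AppSAA mice. No member was called in cluster 0, 3 or 5, where 0.154%, 0.163% and 6.87% of genes were called. With the pool as a block 7.38% of genes were called in cluster 2, 9.79% in cluster 4, and 1.86%, 1.7% and 15.8% in clusters 0, 3 and 5. In cluster 5 the Ms4a4c difference was 0.12, adjusted p = 0.815.

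The genotypes under ATV:ISO were also compared inside clusters. In clusters 0, 2 and 3, where 0.274%, 0.281% and 0.189% of genes were called, Ms4a6b differed by -0.13, -0.29 and -0.21 and Ms4a6d by -0.10, -0.61 and -0.17, and none was called. Under the block Ms4a6d was called in cluster 2 (-0.61, adjusted p = 0.018) and Ms4a6b in cluster 3 (-0.21, adjusted p = 0.0353), where it called 1.33% and 1.64% of genes, and 4.61% in cluster 0 and 2.68% in cluster 1. In cluster 1, where 1.21% were called, 3 WT ATV:ISO mice gave 27 to 62 cells each and were set against 1160 to 2269 cells in the AppSAA mice. Ms4a6c (-1.40, adjusted p = 0.000932), Ms4a6b (-1.20, adjusted p = 0.0117), Ms4a6d (-1.24, adjusted p = 0.0163) and Ms4a7 (-2.12, adjusted p = 0.0170) were lower in the AppSAA cells. Of these Ms4a6c was called whichever mouse was left out. WT ATV:ISO replicates 2 and 4 each had 1 cell with 10 or more Ms4a7 UMIs in this cluster, and their part in the Ms4a7 difference was not tested. Ms4a7 lost its call without WT ATV:ISO replicate 2 (-1.40, adjusted p = 0.426) or 4 (adjusted p = 0.0748), Ms4a6d without replicate 2 (adjusted p = 0.192), and Ms4a6b without replicate 1, 2 or 4 (adjusted p 0.0559 to 0.0708). Ms4a4c gained one, as lower, without WT ATV:ISO replicate 1 (-2.07, adjusted p = 0.0276) or AppSAA ATV:ISO replicate 1 (-1.88, adjusted p = 0.0453).

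With ATV:4D9 in WT mice no member was called inside cluster 0, 2 or 3, where 1.47%, 5.88% and 6.17% of genes were called. Ms4a6b, lower over all WT cells, differed by 0.17, 0.20 and -0.13 inside these clusters, and Ms4a4c, higher over all WT cells, by -0.50, -1.63 (adjusted p = 0.0917) and 0.58. Under the block Ms4a6d in cluster 0 (0.25, adjusted p = 0.0284) and Ms4a7 in cluster 3 (-1.93, adjusted p = 0.0375) were called, with 8.96% and 17.5% of genes, and 11% in cluster 2. Ms4a7 was also called in cluster 3 without WT ATV:4D9 replicate 3 (-2.72, adjusted p = 0.0409), and Ms4a4c in cluster 2 without AppSAA 4D9 replicate 1 (-1.63, adjusted p = 0.0442). The difference between the ATV:4D9 effects in AppSAA and WT mice could be fitted inside clusters 0, 2 and 3. In cluster 2, where edgeR called 0.156% of genes for it, it was called for Ms4a6c (1.27, adjusted p = 0.0413) but in only 3 of 16 fits that left out 1 mouse (adjusted p up to 0.145), and under the block, which called 0.561% of genes, also for Ms4a6d (0.69, adjusted p = 0.0211). In clusters 0 and 3 edgeR called 0% of genes, with 543 and 504 genes at an unadjusted p under 0.05, and 0.163% and 0.0602% under the block. Few cells bear on these values, since clusters 0 and 3 held 60 to 186 and 104 to 242 cells of each WT ATV:4D9 mouse and cluster 2 held 23 to 42 cells of each WT ATV:ISO mouse.

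**Figure D4:**
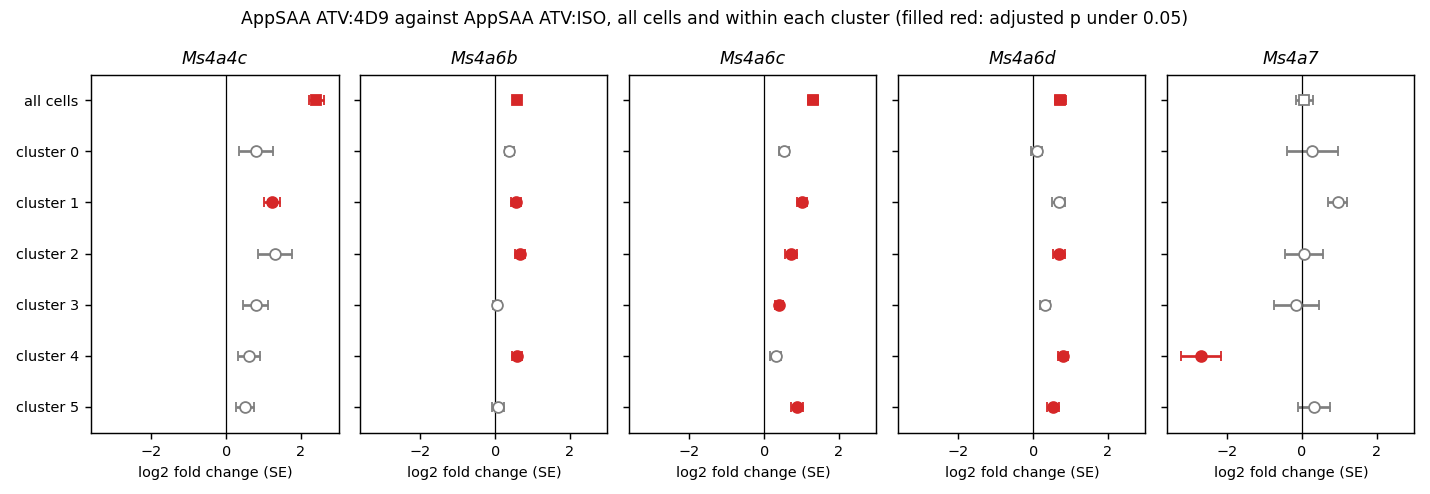
Log2 fold change with SE (horizontal axes) of the 5 members tested inside clusters, filled red where the adjusted p is under 0.05. The rows of the vertical axis are all cells (squares) and each cluster (circles). For AppSAA ATV:4D9 against AppSAA ATV:ISO most values are above 0, and the lowest is Ms4a7 in cluster 4, at -2.69.

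The shares of cells with a UMI depend on the depth of the cells. Before thinning, Ms4a6d was detected in 63.9% of all cells, Ms4a6b in 50.9%, Ms4a6c in 40.3%, Ms4a4c in 6.89%, Ms4a7 in 3.14% and Ms4a4b in 0.313%. No cell type that should lack these genes was present to measure the background of free RNA, which a fixed depth does not remove. Because depth differed between groups, the shares were recomputed for a depth of 5000 UMIs per cell, without the 4309 shallower cells, 2.52% to 11% of the cells of a group. At that depth Ms4a4c was detected in 7.50 ± 1.15% of cells in AppSAA ATV:4D9 mice (mean ± SD, n = 4), 1.81 ± 0.244% with ATV:ISO, 1.62 ± 0.234% with 4D9, 2.42 ± 0.599% in WT ATV:4D9 and 1.31 ± 0.325% in WT ATV:ISO mice. Ms4a6c was detected in 31.7 ± 2.63%, 16.8 ± 1.70%, 18.3 ± 1.42%, 21.8 ± 1.30% and 21.4 ± 1.42% in the same order. Ms4a6b was at 41.9 ± 1.58% in WT ATV:ISO mice and lower in the other 4 groups, at 24.8% to 30.7%. The AppSAA ATV:4D9 and AppSAA ATV:ISO mice did not overlap in Ms4a4b, Ms4a4c, Ms4a6b, Ms4a6c or Ms4a6d, each higher with ATV:4D9 (exact permutation test, p = 0.0286), as was the case for 20.6% of all genes tested, but this smallest p became 0.0571 after adjustment over 36 comparisons, so no member passed. By cluster Ms4a4c was detected in 20.1% of cells of cluster 5 at this depth against 1.08% to 2.70% in the others, and Ms4a7 in 3.76% of cells of cluster 1.

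Cells with UMIs of several members were also counted. Without thinning, 39.9% ± 3.44 of cells of AppSAA ATV:4D9 mice (SD, n = 4) had UMIs of at least 3 members, against 11.9% ± 1.70 with ATV:ISO in AppSAA mice, 31.2% ± 2.96 in WT ATV:4D9 and 15.4% ± 2.28 in WT ATV:ISO mice. These shares carry the difference in depth, and the shares expected from the separate rates of the members were not computed.

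The pattern of each member over the 20 mice was set beside that of 8021 genes with a mean of at least 10 CPM, as Pearson's r of log2 CPM, and over 109 sums of a mouse and a cluster beside 8047 genes. The points share mice and pools, and depth per cell varied between them. Ms4a4c was most like Ifi209 (r = 0.983), Trim25 (0.974) and Isg20 (0.974) over mice and like Irf7 (0.888), Fcgr4 (0.881) and Ifi204 (0.88) over the sums. Most of these are known interferon-induced genes. Ms4a6c was most like Epsti1 (0.955), Nmi (0.948) and the immunoproteasome subunit Psmb10 (0.94), and over the sums like Tor3a (0.855), Isg15 (0.848) and Phf11b (0.835). Ms4a6b was most like Morc3 (0.963), Tgs1 (0.962) and Rap1b (0.952), and over the sums like Capza2 (0.929), the Src-family kinase Lyn (0.913) and Pnp (0.907). Ms4a6d was most like Rala (0.959), Sar1b (0.95) and Tspan31 (0.948), and over the sums like Lpcat2 (0.874), Lyn (0.849) and Rap1b (0.846). Ms4a7 was most like the plaque-associated gene Spp1 (0.846), Flt1 (0.809) and Apoe (0.795), and over the sums like Pf4 (0.605), Flt1 (0.571) and Myo5a (0.57). The rare Ms4a4b was most like Ddx60 (0.883), Parp10 (0.878) and Clec2d (0.873), and over the sums like Mx1 (0.615), Cmpk2 (0.612) and Pml (0.61).

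Between members, over the 20 mice, r was 0.891 for Ms4a4c with Ms4a6c, 0.852 for Ms4a6b with Ms4a6d, 0.102 for Ms4a4c with Ms4a6b and -0.506 for Ms4a6d with Ms4a7. Over the 109 sums the same pairs had r of 0.786, 0.809, 0.232 and -0.318. The pairs of similar promoter windows, Ms4a6b with Ms4a6c and Ms4a4b with Ms4a4c, had r of 0.461 and 0.746 over mice and 0.524 and 0.427 over the sums.

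Part of the Ms4a7 signal came from few cells. A threshold of 10 Ms4a7 UMIs, chosen after the values were seen, marked 53 cells that held 1033 of the 4434 Ms4a7 UMIs (23.3%). Of these cells 25 were in cluster 1, 16 in cluster 4, 6 in cluster 2, 6 in cluster 5 and 0 in clusters 0 and 3. The border-associated macrophage markers were higher in them than in the other cells, with Mrc1 at 317 against 5.01 CPM, Pf4 at 426 against 10.1 CPM, F13a1 at 105 against 2.12 CPM and Cbr2 at 57.4 against 1.59 CPM. The microglial marker P2ry12 was lower, at 378 against 1307 CPM, but present. These are levels of the 53 cells together, and the cells were mixed. Pf4 was detected in 60.4% of them, Mrc1 in 47.2%, Cbr2 in 30.2% and F13a1 in 22.6%. The microglial markers Tmem119 and P2ry12 were detected in 94.3% and 88.7%. In WT ATV:ISO replicate 2, 3 of these cells held 75 of 133 Ms4a7 UMIs (56.4%). For the other 5 members these cells held at most 1.17% of the UMIs.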

How the data were processed

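The authors deposited UMI counts per gene and cell, with an annotation that gives each cell its mouse, pool, percent of mitochondrial UMIs and cluster. Reads were mapped with Cell Ranger 6.1.1 to mm10, per the submitters' processing notes, cells were assigned to mice by oligonucleotide tags, and clusters came from integrated data in Seurat. Filters on cells, and whether doublets were removed, were not given in the sources used here, and no doublet caller was run. The isotype is named ATV-DNP02 in the annotation and was read as ATV:ISO, and its group names assign mice to groups, since each of the 4 labeled libraries is a pool.

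Counts of all cells of a mouse, and of each cluster with at least 20 cells, were summed. All 5 groups were fitted together by edgeR 4.0.16 in R 4.3.3 (filterByExpr, TMM, quasi-likelihood test), and p-values were adjusted by Benjamini-Hochberg across every gene that passed the filter. The test was also run on data simulated from the WT groups alone, without a pool effect, and the outcome is not reported here. Shares of cells were taken at an expected 5000 UMIs and compared by 2-sided exact permutation tests over mice, with p as the share of regroupings whose difference was at least as large in size. UMIs per 100 cells were compared likewise, and each family of 36 comparisons was adjusted. Pearson correlations used log2 CPM with a prior count of 2. Sequences and transcripts were matched by symbol. A protein table was not used here.

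The study's label text places 1 replicate of each condition in each batch, and deviations from the group means correlated in all 40 pairs of mice of 1 pool (r 0.143 to 0.607) against -0.514 to 0.249 in 120 pairs of different pools. The pools therefore pair the mice, and blocked values are given where they change a member's call or move the count of all genes called by over 1.5 times. The exact permutation tests regrouped mice freely across pools, so their p-values take no account of this pairing.

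The members and lists were chosen with earlier results of these data known. The named genes are the members, the other Ms4a genes with Tmem176a and Tmem176b, the 3 genes most like each member, and, from each list, called genes with the largest fold changes. Levels were put on the TMM scale after the values were seen, so that they share a scale with the fold changes. Alternatives were RLE size factors, no filter on low counts, DESeq2 1.42.0, limma-voom (limma 3.58.1), the pool as a block, only the groups compared, other sets of cells, thinning to 3000 UMIs or none, sums of at least 50 cells, clusters at a resolution of 0.4 in place of 0.2, and each mouse left out. Counting error limits Ms4a4b most.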

Additional observations from a re-analysis of the deposited data

Results flagged for a closer look

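The effect of ATV:4D9, as a log2 fold change against ATV:ISO, differed between AppSAA and WT mice in 4 members by the test of the difference itself, which called 9.14% of all genes, or 30.5% with the pool as a block. The difference was 1.29 for Ms4a4c (adjusted p = 0.008), 1.13 for Ms4a6c (adjusted p = 0.000409), 1.06 for Ms4a6b (adjusted p = 0.000108) and 0.70 for Ms4a6d (adjusted p = 0.0413), by edgeR's quasi-likelihood test with Benjamini-Hochberg adjustment. Ms4a6b differed in direction, with -0.49 in WT and 0.57 in AppSAA mice, and the other 3 rose more in AppSAA mice. The Ms4a6b directions are those of its share of the UMIs: per cell it was higher with ATV:4D9 in both genotypes, 1.27-fold in WT and 2.10-fold in AppSAA mice. The values of Ms4a4c and Ms4a6d without certain cells or mice are given in the report.

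In 30 sets of 4 mice, 1 for each member and group, 4 held a mouse whose normalized CPM lay far from the other 3 by Dixon's criterion, which flags about 1 set in 20 by chance. Ms4a7 was at 5.75 CPM in WT ATV:ISO replicate 2, against 2.43 to 2.87 CPM in the others of that group, and 3 cells held 56.4% of its UMIs there. Ms4a4c was at 15.8 CPM in AppSAA ATV:4D9 replicate 4, against 24.0 to 25.2 CPM. Ms4a6b was at 67.5 CPM in AppSAA ATV:ISO replicate 1, against 52.3 to 54.7 CPM. Ms4a4b was at 0.117 CPM in AppSAA 4D9 replicate 3, against 0.153 to 0.159 CPM. Without TMM scaling none of these 4 met the criterion, and Ms4a7 in AppSAA 4D9 replicate 3 did, at 4.12 CPM.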

How the results depend on the processing

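The calls of Ms4a4b, Ms4a4c, Ms4a6b, Ms4a6c and Ms4a6d with ATV:4D9 in AppSAA mice, those of Ms4a4c and Ms4a6b in WT mice, and those of Ms4a6b and Ms4a6d between the genotypes under ATV:ISO held in all settings run and in each fit without 1 mouse. In the test of the difference between the ATV:4D9 effects, 2 of 4 members were still called without cells with UMIs of other cell types, a step that removed 73.0% of cells, and 3 to 4 when 1 mouse was left out. The genes called by that test went from 1285 to 624 in the former and ranged from 969 to 1861 in the latter. Outside the report's values, Ms4a4c was called between the genotypes under ATV:ISO with only the 2 groups fitted (0.50, adjusted p = 0.0322) and without cells above 25000 UMIs (0.70, adjusted p = 0.0339), Ms4a7 was called lower with ATV:4D9 in WT mice without other-cell-type cells, Ighm and Cd79b not counted (-0.74, adjusted p = 0.0217), and Ms4a4b lost its call between the genotypes under ATV:4D9 without a filter on low counts (adjusted p = 0.0583).

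With the pool as a replicate block, members called for AppSAA ATV:4D9 against AppSAA ATV:ISO went from 0 to 2 in cluster 0 (1 with RLE size factors), from 3 to 5 in cluster 1, from 3 to 4 in cluster 2 and from 1 to 2 in cluster 3. In these clusters the share of all genes called went from 0.667% to 5.27%, from 1.51% to 7.77%, from 13.2% to 24.8% and from 4.33% to 12.6%. For AppSAA ATV:4D9 against AppSAA 4D9 the members called went from 0 to 2 in clusters 0 and 5, from 2 to 4 in cluster 1 and from 0 to 1 in cluster 3. All genes called there went from 0.65% to 4.62% in cluster 0, from 16.3% to 23.1% in cluster 5, from 1.76% to 6.73% in cluster 1 and from 3.52% to 11.2% in cluster 3. For the difference between the effects members went from 1 to 2 in cluster 2, and all genes from 0.156% to 0.561%. The block also gave 1 call in place of 0 for the genotypes under ATV:ISO in clusters 2 and 3, and for ATV:4D9 in WT mice in clusters 0 and 3. Of all genes it called 1.33%, 1.64%, 8.96% and 17.5% in these, in this order. Leaving out 1 mouse at a time gave, for AppSAA ATV:4D9 against AppSAA ATV:ISO, 0 to 1 calls in cluster 0, 2 to 5 in cluster 1, 3 to 4 in cluster 2, 0 to 1 in cluster 3, 2 to 4 in cluster 4 and 1 to 3 in cluster 5, for the genotypes under ATV:ISO 1 to 5 in cluster 1 and 2 to 3 over all cells, and for ATV:4D9 in WT mice 0 to 1 in cluster 3. For AppSAA ATV:4D9 against AppSAA 4D9 it gave 2 to 3 in cluster 1, 0 to 3 in cluster 2, 2 to 4 in cluster 4 and 0 to 2 in cluster 5, and for the difference between the effects 0 to 1 in cluster 2. These ranges leave out mice of the groups compared; leaving out a mouse of another group changed some calls named in the report, such as Ms4a4c in cluster 2. The block changed no call of a member over all cells beyond the 2 given in the report.

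Without thinning, the percent of cells with a UMI differed in 4 members with ATV:4D9 in WT mice, in 4 between the genotypes under ATV:ISO, in 5 for ATV:4D9 against ATV:ISO and in 5 against 4D9 in AppSAA mice, and in 3 between the genotypes under ATV:4D9, where thinned cells gave 0. Not thinned, 61.3%, 23.3%, 49.1%, 41.7% and 4.08% of all genes were higher without overlap in these comparisons, in this order, and 2.16%, 2.30%, 2.75%, 2.48% and 11.9% lower. The smallest p, 0.0286, became 0.0571 after adjustment over the 36 thinned comparisons and 0.049 over the 36 without thinning. At this floor the adjusted p depends only on how many of the 36 comparisons reach it, so passing or not passing does not rank the members. At the finer resolution of 0.4 the highest cluster mean of Ms4a7 was 24.0 CPM in place of 11.7. The causes of these changes were not tested. Where neither fit called a member, a change of sign was not counted as a reversal, and no called value of a fit reversed. The difference in the percent of cells with a UMI did reverse for Ms4a6b with ATV:4D9 in WT mice. Without thinning the percent was 61.9% in WT ATV:4D9 and 56.0% in WT ATV:ISO mice, without overlap. At 5000 UMIs it was 30.7% and 41.9%, also without overlap, although no thinned comparison passed after adjustment. At that depth 29.9% of all genes tested were lower without overlap between these 2 groups. Sums of as few as 23 cells and the 256 UMIs of Ms4a4b limit what could be seen inside clusters.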
